A study of Homo sapiens with 8 samples.

Results

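Interferon-stimulated genes are the genes that cells switch on after an interferon binds its receptor. A set of 43 such genes, taken by gene name, was followed in 2 human cancer cell lines transfected with mature miRNAs. They were 43 of the 43317 gene names on the arrays and were read by 59 probes of 60 bases, with more than 1 probe for 15 of them. The probe with the strongest signal over the arrays stood for its gene, and a gene is called above background or not by that probe. On hg19, the probes of the genes treated most fully below lie at chr10:91163438-91163497 (IFIT1), chr10:91068397-91068456 (IFIT2), chr10:91099762-91099821 (IFIT3), chr12:121458320-121458379 (OASL), chr15:89198784-89198843 (ISG20), chr2:163128806-163128865 (IFIH1), chr11:612643-612702 (IRF7), chr1:27992837-27992896 (IFI6) and chr14:94582967-94583026 (IFI27).

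As background, cytoplasmic sensors such as DDX58 (RIG-I) and IFIH1 (MDA5) recognise double-stranded RNA and signal through MAVS to the factors IRF3 and IRF7, which turn on interferon genes. Secreted interferon activates JAK kinases, and factors that include STAT2 and IRF9 then bind a short promoter element and raise the transcription of the antiviral genes. The products bind foreign RNA (IFIT family), make the second messenger that activates RNase L (OAS family), block viral entry (IFITM family) or are attached to other proteins (ISG15). Many are present at low levels in unstimulated epithelial cells.

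HCT116 is a human colorectal cancer line and PANC-1 a human pancreatic cancer line. In HCT116, 4 arrays carried RNA of cells transfected with a strand of miR-139 (5p or 3p) or of miR-143 (5p or 3p). In PANC-1, 4 arrays carried RNA of cells given a strand of miR-30c (miR-30c-5p or miR-30c-2-3p) or of miR-30a (5p or 3p). The RNA of transfected cells was in the Cy5 channel, and Cy3 carried the RNA of mock cells from that line, labelled as having had no transfection. Transfection used Lipofectamine RNAiMAX, and cells were grown in RPMI or DMEM. Each miRNA had 1 array and dyes were not swapped, so no log2 ratio below carries an error between cultures, and a dye effect, the transfection itself and the miRNA cannot be told apart. No array held a control miRNA. These are bulk RNAs, so more cells that express a gene and more RNA per cell cannot be told apart.

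The arrays shared 1 slide and 1 scan, with HCT116 and PANC-1 in different columns of the slide. The share of spots well above background was 44.1% to 45.3% for Cy3 and 45.8% to 51.4% for Cy5. Repeated spots of a probe had a median SD of 0.0393 to 0.0646 in log2 ratio, an error within 1 hybridisation. The number of arrays limits the precision. The keratins KRT8, KRT18 and KRT19 were above background in both lines. The epithelial marker CDH1 was at 8.5 to 9.3 on the log2 scale in mock HCT116 and at 4.6 to 5.4 in mock PANC-1. EPCAM was at 12.1 to 12.3 and at 7.5 to 7.9. The vimentin gene VIM was at 15.0 to 15.4 in mock PANC-1 and at 5.1 to 6.6 in mock HCT116. Of the other mesenchymal markers, ZEB1, CDH2 and SPARC were higher in mock PANC-1 and FN1 was above background in Cy3 on no array. Of the intestinal markers CDH17 and VIL1 were above background in Cy3 on no array and KRT20 on the 2 miR-139 arrays (4.81 and 4.76). Among leukocyte and plasmacytoid dendritic cell markers, CD3E and CLEC4C were above background in Cy3 on no array. PTPRC and CD14 were above it on all 8 arrays at 4.6 to 5.6, IL3RA on the 4 PANC-1 arrays (4.66 to 4.84) and LILRA4 on the miR-139-3p array (4.72).

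The transfected miRNAs are shown because each was given to the cells as a mature strand and because strands of 1 precursor are compared below. Sequences are mature miRNAs of RefSeq with positions on GRCh38.p14, and capitals mark the seed (bases 2 to 8), which pairs with target RNAs. The 5p strands of miR-30c and miR-30a share the seed GUAAACA, and the other 6 seeds differ.
miR-139-5p: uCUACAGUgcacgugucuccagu
miR-139-3p: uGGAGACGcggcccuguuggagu
miR-143-5p: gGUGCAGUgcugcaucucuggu
miR-143-3p: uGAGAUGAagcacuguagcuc
miR-30c-5p: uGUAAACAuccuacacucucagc
miR-30c-2-3p: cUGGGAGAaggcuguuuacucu
miR-30a-5p: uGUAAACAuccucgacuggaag
miR-30a-3p: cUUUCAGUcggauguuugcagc

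A promoter element of the interferon response was looked for in the members. They were chosen by name as interferon-stimulated genes, so its frequency among them is no independent result. Factors of the STAT2 and IRF9 complex are known to bind paired GAAA repeats, so promoters of 250 bases before to 50 bases after the RefSeq start site (GRCh38.p14) were searched on both strands for GAAANNGAAA, overlapping matches included. A match was present in 23 of the 35 members with a promoter entry (65.7%) and in 996 of 27305 promoters (3.65%). For IFIT2, DHX58, OAS2, OASL, MX2, IRF7, USP18 and IFITM2 no promoter was searched. A match is a run of letters and not a measured binding site. The windows below are those of members with the largest differences on the arrays, 30 bases each, printed 5′ to 3′ on the gene's strand from 3 bases before the first match. Capitals mark matches, which read TTTCNNTTTC where the element lies on the opposite strand.
IFIT1, chr10:89392504-89392533, plus strand: tagTTTCACTTTCcccTTTCGGTTTCccta
IFIT3, chr10:89327838-89327867, plus strand: aggTTTCATTTTCctcctcccaacgatttt
IFIH1, chr2:162318817-162318846, minus strand: cgcTTTCCTTTTCTGTTTCccgcggtgtcc
ISG20, chr15:88638944-88638973, plus strand: ctaGAAACTGAAAcagggtcgggatgccga
IFI6, chr1:27672322-27672351, minus strand: gggGAAAATGAAActctgcagagtgcagga
IFI27, chr14:94110625-94110654, plus strand: cagTTTCGGTTTCctgGAAAATGAAAccta
ISG15, chr1:1013381-1013410, plus strand: cggGAAAGGGAAACCGAAActgaagccaaa
The first match began 116 bases before the start site in IFIT1, 156 in IFIT3, 159 in IFIH1, 69 in ISG20, 156 in IFI6, 108 in IFI27 and 113 in ISG15.

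Of the 43 members, 30 were well above background in Cy3 and Cy5 on each of the 8 arrays, 10 were so on some arrays (IFI44, OAS1, OAS2, MX1, MX2, HERC6, XAF1, SAMD9, SAMD9L and TLR3) and 3 on none (IFI44L, RSAD2 and EPSTI1). IFI44L, a gene of unclear function, was not above background in any channel. A member counted as detected on an array when it was above background in at least 1 channel, which gave 35 to 40 members per array. Values over the arrays are given below in a fixed order, which for HCT116 is miR-139 and then miR-143 and for PANC-1 miR-30c followed by miR-30a, the 5p strand before the 3p strand in each case. They are log2 ratios of Cy5 (transfected) over Cy3 (mock) unless called levels. An offset of 50 was added to the intensities, and the scanner's own log ratio has no offset. For dim probes the ratio can therefore lie nearer to mock than the scanner's. IFI27 with miR-30c-2-3p was at 0.76 and by the scanner at 1.79, and IFI35 with miR-139-3p at -0.27 and -0.92. The bright IFIT1 with miR-30c-2-3p was at -0.87 and -0.92. A small ratio of a dim member thus does not show a level near mock. How many members differ so was not counted. A gene was counted as higher or lower than mock where its log2 ratio was 1 or more from 0, which is 2-fold. Of the 43 members, 9 passed this size rule on at least 1 array.

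The members as a group lay close to mock on 6 of the 8 arrays and farthest from it on miR-143-3p and miR-30c-2-3p. Their median log2 ratio in HCT116 was 0.07, 0.10, -0.08 and 0.21. In PANC-1 it was -0.02, -0.38, -0.05 and -0.05. The median of all detected genes was between 0.005 and 0.021 on the 8 arrays. On the miR-143-3p array, 31 of 38 detected members were above 0, where 10327 of 20106 detected genes were. On the miR-30c-2-3p array 31 of 36 were below 0, where 9808 of 20703 genes were.

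**Figure D1:**
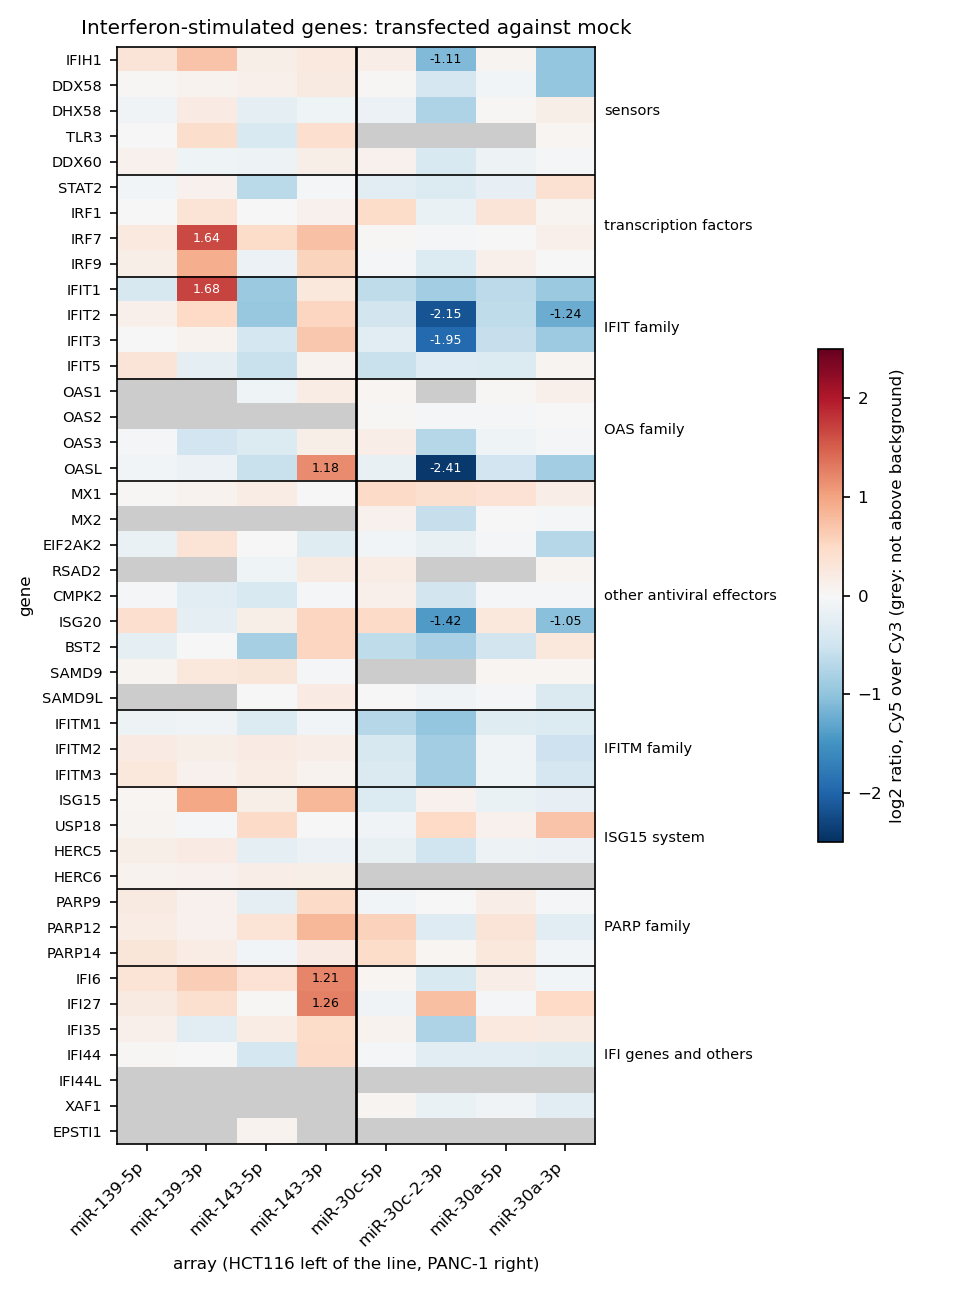
Heat map of the log2 ratio (Cy5 transfected over Cy3 mock, colour scale) of the 43 genes (rows, grouped by role) on the 8 arrays (columns, 1 array per miRNA). Numbers are printed in cells at least 1 from 0, and grey cells were not above background in either channel. The lowest cells are OASL (-2.41), IFIT2 (-2.15) and IFIT3 (-1.95) on the miR-30c-2-3p array, and the highest are IFIT1 (1.68) and IRF7 (1.64) on the miR-139-3p array.

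Transfection of miR-30c-2-3p in PANC-1 gave the most members past the size rule, all of them lower than mock. They were OASL, an inactive relative of the 2′-5′ oligoadenylate synthetases, the RNA-binding proteins IFIT2 and IFIT3, the exonuclease ISG20, and the sensor IFIH1. These were 5 of 36 detected members (13.9%), where 4.14% of all detected genes were lower by this rule. No member was higher, where 1.71% of all genes were. The scanner's own log ratio, which has no offset, counted 14 members lower, and an offset of 10 counted 11. Median centring in place of loess counted 4, with IFIH1 at -0.98 and so no longer past the rule. The share of all genes lower under these settings was not computed, so these counts have no baseline.

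On the miR-30a-3p array, which carried the passenger strand of the related precursor, 2 of 40 detected members were lower than mock (IFIT2 and ISG20), against 1.10% of all genes, and 0 were higher, against 0.372%. DDX58 (-0.97), IFIH1 (-0.96), IFIT1 (-0.93) and IFIT3 (-0.91) lay just inside the limit. With median centring in place of loess, the all-gene median of this array moved to 0.30 and 0 members were lower, with IFIT2 at -0.60 and ISG20 at -0.32. The scanner's own log ratio counted 10 lower. For these settings too the share of all genes was not computed.

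The guide strands of the same precursors gave no member past the rule. On the miR-30c-5p array 0 of 38 detected members were higher (0.747% of all genes) and 0 lower (0.445%). On the miR-30a-5p array 0 of 38 were higher (0.306%) and 0 lower (0.263%). The IFIT genes were nevertheless below 0 on both, between -0.63 and -0.27 for miR-30c-5p and between -0.65 and -0.34 for miR-30a-5p.

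In HCT116, the members past the rule were higher than mock. On the miR-139-3p array these were IFIT1 and IRF7, 2 of 35 detected members, against 2.11% of all genes, and 0 were lower, against 2.82%. ISG15 (0.96) and IRF9 (0.90) lay just below the limit. On the miR-143-3p array, IFI27, IFI6 and OASL were higher, 3 of 38, against 0.517% of all genes, and 0 were lower, against 0.925%. The scanner's own log ratio counted 7 members higher on each of these arrays, and the share of all genes under it was not computed.

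The remaining HCT116 arrays gave no call. With miR-139-5p, 0 of 35 members were higher (0.0587% of all genes) and 0 lower (0.201%). With miR-143-5p, 0 of 39 were higher (0.356%) and 0 lower (1.0%). On the latter array IFIT2 (-0.94) and IFIT1 (-0.93) lay just inside the limit. There 3 members were lower with an offset of 10, for which the share of all genes was not computed.

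Among the sensors of double-stranded RNA, IFIH1 differed most from mock. In HCT116 its log2 ratio was 0.32, 0.71, 0.15 and 0.24, and in PANC-1 0.17, -1.11, 0.06 and -0.96. It was above mock on the 4 HCT116 arrays and on the 2 guide-strand arrays of PANC-1, and below mock on both passenger-strand arrays of PANC-1. DDX58, which recognises RNA with 5′ triphosphates, was at 0.02, 0.09, 0.13 and 0.22 in HCT116 and at 0.04, -0.41, -0.07 and -0.97 in PANC-1. Its second probe gave -1.07 on the miR-30a-3p array. DHX58 (LGP2), a helicase that modulates both, was lowest with miR-30c-2-3p, at -0.77. DDX60 stayed between -0.39 and 0.15, and TLR3, the endosomal sensor, was detected on the 4 HCT116 arrays (-0.37 to 0.45) and in PANC-1 on the miR-30a-3p array alone (0.05).

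Of the transcription factors, IRF7, which amplifies interferon gene expression, was higher with miR-139-3p. Its log2 ratio was 0.24, 1.64, 0.45 and 0.73 in HCT116, and 0.03, -0.05, -0.01 and 0.13 in PANC-1. The 4 PANC-1 values lay close to mock. IRF9 was at 0.90 on the miR-139-3p array by the probe that represents it and at 0.08 by its other probe. STAT2 was lowest with miR-143-5p (-0.67) and highest with miR-30a-3p (0.39), and IRF1, which also responds to interferon gamma, stayed between -0.17 and 0.45.

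The IFIT genes, whose products bind foreign RNA and restrict its translation, held the largest differences after OASL. IFIT1 in HCT116 was at -0.39, 1.68, -0.93 and 0.27, and in PANC-1 at -0.63, -0.87, -0.65 and -0.93. It was thus below mock on all 4 PANC-1 arrays and on both sides of mock in HCT116. IFIT2 was at 0.13, 0.49, -0.94 and 0.53 in HCT116 and at -0.46, -2.15, -0.63 and -1.24 in PANC-1. On the miR-139-3p array, where IFIT2 was dim, the scanner's own log ratio was 1.17 in place of 0.49. The other IFIT2 probe gave -1.18 on the miR-30c-2-3p array and -0.81 on that of miR-30a-3p. IFIT3 was at -0.00, 0.08, -0.44 and 0.68 in HCT116, and at -0.27, -1.95, -0.58 and -0.91 in PANC-1. In PANC-1, IFIT2 and IFIT3 followed the same order of arrays, with miR-30c-2-3p lowest and miR-30c-5p nearest to mock. IFIT5 did not pass the rule on any array and lay between -0.56 and 0.32. The most alike pair of probes among the IFIT and IFITM genes was that of IFITM2 and IFITM3, which matched at 34 of 60 bases, so signals of these genes may be mixed. No other pair matched at more than 22.

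In the OAS family, OASL was the only member past the rule. Its log2 ratio was -0.06, -0.14, -0.56 and 1.18 in HCT116, and -0.18, -2.41, -0.48 and -0.86 in PANC-1. Of the miR-143 strands, the 3p lay above mock and the 5p below it, and of the miR-30c strands the 3p was the lower one. OAS3 was lowest with miR-30c-2-3p (-0.71), where its other probe, which was dim, gave -0.09. OAS1 and OAS2 were near background and lay between -0.10 and 0.18 where detected.

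Of the other antiviral effectors, ISG20, a 3′-5′ exonuclease that degrades viral RNA, was at 0.42, -0.22, 0.14 and 0.54 in HCT116 and at 0.47, -1.42, 0.25 and -1.05 in PANC-1. As for IFIH1, it was above mock with both guide strands of PANC-1 and below mock with both passenger strands. BST2 (tetherin), which holds budding virions at the cell surface, was at -0.82 with miR-143-5p and 0.54 with miR-143-3p in HCT116, and in PANC-1 at -0.82 on the miR-30c-2-3p array and 0.27 on that of miR-30a-3p. EIF2AK2 (PKR), which stops translation on binding double-stranded RNA, was lowest with miR-30a-3p (-0.72), where its other probe gave -0.33. MX1, a GTPase against influenza viruses, lay between 0.00 and 0.49 where detected, and MX2 was detected by the probe that stood for it on the PANC-1 arrays alone, between -0.57 and 0.11. Its other probe, which is assigned to another transcript, was dim but detected on all 8 arrays and lay between -0.02 and 0.09. CMPK2, SAMD9, SAMD9L and RSAD2 stayed between -0.47 and 0.31 where detected.

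The IFITM genes, which block the fusion of viruses with the cell, lay below mock together in PANC-1 without passing the rule. IFITM1, IFITM2 and IFITM3 were at -0.96, -0.86 and -0.88 with miR-30c-2-3p, and all 3 were below 0 on each PANC-1 array. In HCT116 they lay between -0.33 and 0.26. The other IFITM1 probe gave -1.31 on the miR-30c-2-3p array and -1.14 on that of miR-30c-5p.

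In the ISG15 system, the ubiquitin-like modifier ISG15 was at 0.04, 0.96, 0.15 and 0.83 in HCT116 and at -0.34, 0.10, -0.17 and -0.20 in PANC-1. In HCT116 it was thus higher with the 3p than with the 5p strand of each precursor. USP18, the protease that removes ISG15, was highest with miR-30a-3p (0.71), and HERC5 and HERC6, related ligases, stayed between -0.50 and 0.21 where detected. The PARP family members lay between -0.32 and 0.84, with PARP12 highest on the miR-143-3p array. For PARP9, its probes gave -0.01 and -0.65 on the miR-30c-2-3p array.

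Of the remaining genes, IFI6 and IFI27, small mitochondrial proteins induced by interferon alpha, were higher with miR-143-3p. IFI6 was at 0.34, 0.61, 0.37 and 1.21 in HCT116 and at 0.05, -0.37, 0.17 and -0.08 in PANC-1. IFI27 was at 0.22, 0.39, 0.02 and 1.26 in HCT116, and at -0.09, 0.76, -0.06 and 0.50 in PANC-1. With miR-30c-2-3p, IFI27 was thus above mock where most members were below it. IFI35 was lowest on that array (-0.77), and IFI44, XAF1 and EPSTI1 lay between -0.44 and 0.49 where detected.

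**Figure D2:**
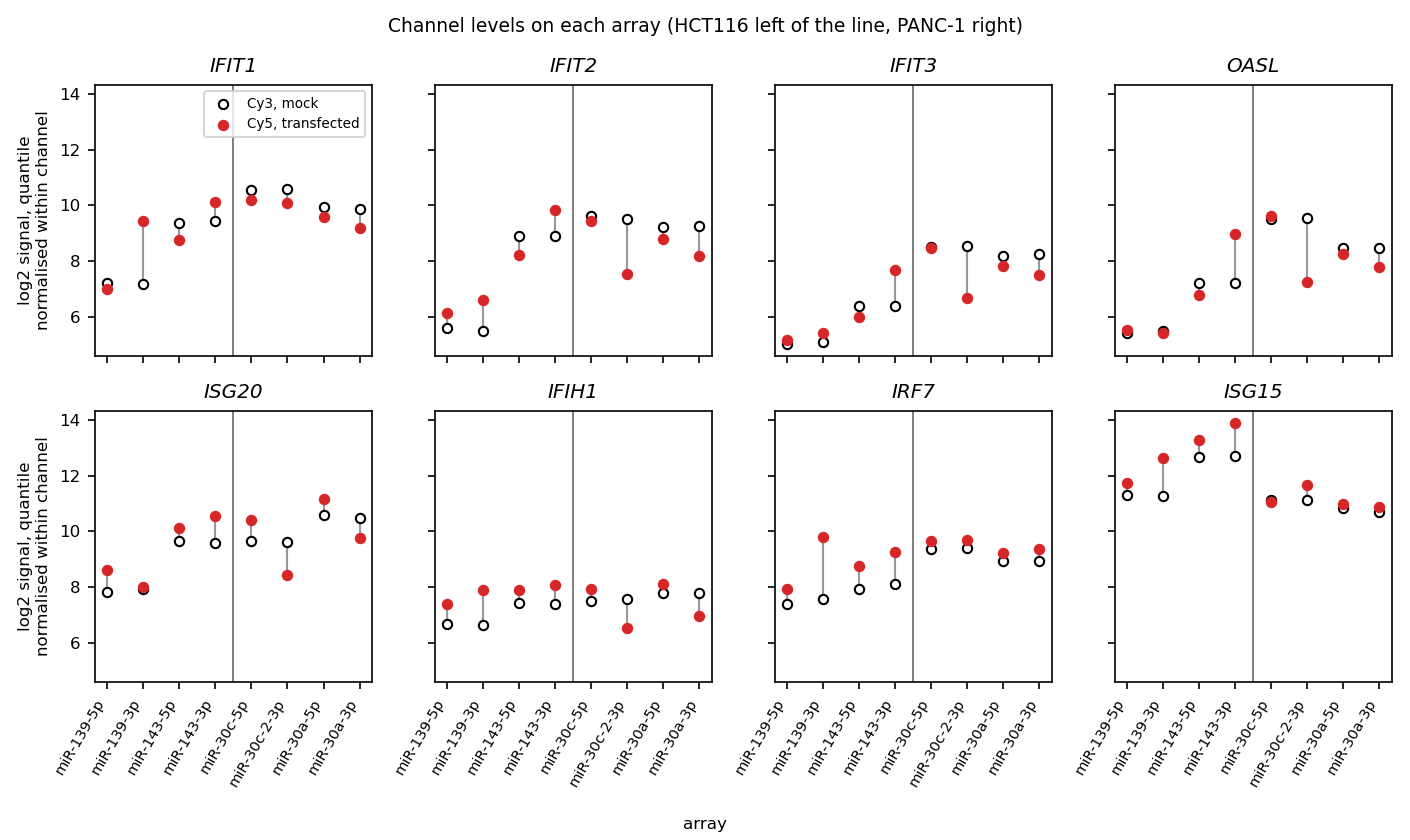
Channel levels (log2 signal, quantile normalised within each channel) of 8 genes on the 8 arrays. Open points are Cy3 (mock) and filled points Cy5 (transfected), each 1 array; the channels were normalised apart, so the gap between points is not the log2 ratio. The mock points of IFIT2 sit at 5.49 to 5.61 on the miR-139 arrays and at 8.91 on both miR-143 arrays.

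The mock cells of HCT116 themselves differed in these genes. Levels here are log2 Cy3 signals after quantile normalisation between arrays, averaged over the 2 arrays of a precursor. Whether these 2 arrays carried the same mock RNA is not given in the labels, and the largest difference between them in any member above background was 0.22 (miR-139), 0.27 (miR-143), 0.26 (miR-30c) and 0.32 (miR-30a). Between the precursors, mock HCT116 of the miR-143 arrays was higher than that of the miR-139 arrays by a median of 0.66 over the 36 members above background, where the median of all genes was -0.02. In all, 35 of 36 members were higher there, 11 of them at least 2-fold, against 1.23% of all genes, and 0 were at least 2-fold lower, against 0.550%. With 1 mock mean per precursor this difference has no test.

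The 11 members came from most of the groups above. IFIT2 was at 5.55 in the mock of the miR-139 arrays and at 8.91 in that of the miR-143 arrays, a difference of 3.36 or 10.3-fold. IFIT1 was at 7.19 and 9.41, 4.67-fold apart. IFI27 was at 6.31 and 8.44, 4.36-fold apart. These gaps carry no background correction, unlike the log2 ratios, so their sizes are not on the same scale. With normexp the gaps were 2.66 (IFIT2), 1.99 (IFIT1) and 1.75 (IFI27) on the log2 scale. The largest log2 ratio of a member in HCT116 was 1.68, after another normalisation. OASL (1.76), ISG20 (1.73), BST2 (1.64), ISG15 (1.40), IFIT3 (1.32), PARP9 (1.27) and IFI6 (1.25) followed on the log2 scale. IFI44 was not above background on the miR-139 arrays in Cy3 and was at least 3.95-fold higher in the mock of the miR-143 arrays. IRF7 differed by 0.53, DHX58 by 0.06 and EIF2AK2 by -0.05. With 75th percentile scaling of the processed signal 17 members were at least 2-fold higher, where 3.74% of all genes were. Normexp gave 9 (0.692% of all genes), with IFIT3 at 0.81 and PARP9 at 0.87, and a members' median of 0.45. The median over probes gave 10 (0.996%). The other IFIT2 probe was at 4.55 and 4.58 on the miR-139 arrays, not above background, and at 6.19 and 6.30 on the miR-143 arrays. The other PARP9 probe was at 5.66 and 5.53, then 6.23 and 6.32.

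The transfected channels, which hold 4 different miRNAs, also differed between the precursors. In Cy5, both miR-143 arrays were above both miR-139 arrays for 22 of 37 members and below both for 1, with a median difference of 0.54. This was not computed for all genes, so it cannot be called particular to the members. The log2 ratios of the miR-139 and miR-143 arrays are therefore set against mock levels that differed in these genes, and the size of a ratio on 1 precursor cannot be read against that on the other.

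Mock PANC-1 differed in fewer members. Between the miR-30a and the miR-30c arrays, 0 of 37 members were at least 2-fold higher, against 0.305% of all genes, and 1 was lower, against 0.0946%. That member was OASL, at 9.53 in the mock of the miR-30c arrays and at 8.46 in that of the miR-30a arrays. The median difference was 0.05, with 21 of 37 members above 0. ISG20 (0.92) and SAMD9L (0.80) differed most in the other direction.

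**Figure D3:**
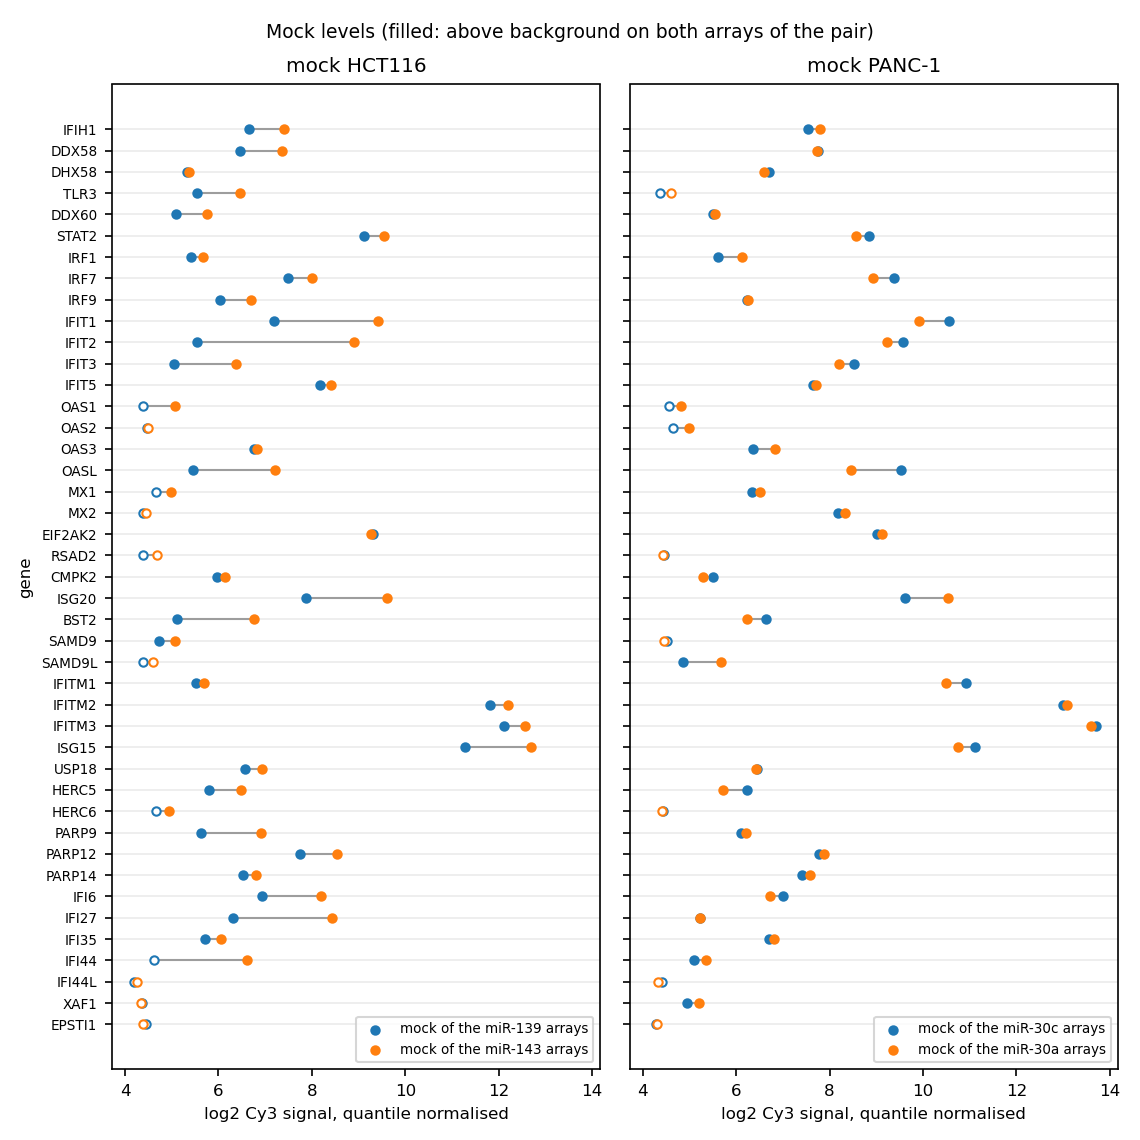
Mock levels (log2 Cy3 signal, quantile normalised, mean of the 2 arrays of a precursor) of the 43 genes in HCT116 (left) and PANC-1 (right). Filled points were above background on both arrays. In HCT116 the mock of the miR-143 arrays lies to the right of that of the miR-139 arrays for 35 of 36 members above background, by 3.36 for IFIT2, while in PANC-1 the points lie close together apart from OASL (-1.07) and ISG20 (0.92).

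Strands of 1 precursor were compared directly, since they shared the mock level within the differences given above. The comparison is the log2 ratio of the 3p array minus that of the 5p array, over members above background in both channels of both arrays. For miR-143, 6 of 36 members were at least 2-fold higher with the 3p strand, against 1.51% of all genes, and 0 lower, against 1.14%. They were OASL (1.74), IFIT2 (1.47), BST2 (1.36), IFI27 (1.24), IFIT1 (1.20) and IFIT3 (1.12), and the median over the members was 0.32. For miR-139, 2 of 32 were higher with the 3p strand (IFIT1, 2.07, and IRF7, 1.41), against 2.86% of all genes, and 0 lower, against 3.55%, with a median of 0.07.

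In PANC-1 the 3p strands were the lower ones. For miR-30c, 5 of 35 members were at least 2-fold lower with miR-30c-2-3p than with miR-30c-5p, against 5.61% of all genes, and 0 higher, against 2.52%. They were OASL (-2.24), ISG20 (-1.90), IFIT2 (-1.70), IFIT3 (-1.68) and IFIH1 (-1.28), and the median was -0.42. For miR-30a, 2 of 37 were lower (ISG20, -1.31, and IFIH1, -1.02), against 2.16% of all genes, and 0 higher, against 1.22%. IFIT2, lower than mock with miR-30a-3p, differed from the 5p strand by -0.61. The median was -0.11.

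**Figure D4:**
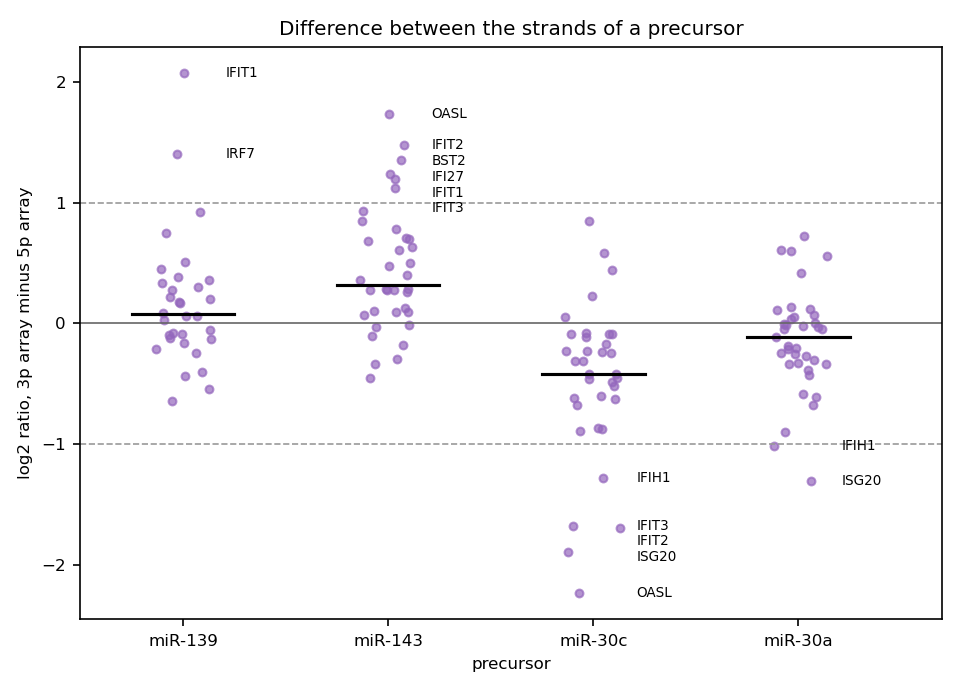
Log2 ratio of the 3p array minus that of the 5p array for each precursor. Points are genes above background in both channels of both arrays, bars are medians (0.07, 0.32, -0.42 and -0.11 from left to right), dashed lines mark 2-fold, and genes beyond them are named in order. The named genes lie above 0 for miR-139 and miR-143 and below 0 for miR-30c and miR-30a.

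The members with and without the promoter element were set side by side. On the miR-30c-2-3p array the median was -0.39 over 19 detected members with a match and -0.34 over 9 without, and 3 with a match and 0 without were at least 2-fold lower. On the miR-143-3p array the medians were 0.24 (21 members) and 0.20 (11 members). In the HCT116 mock difference they were 0.75 (21 members) and 0.42 (9 members), with 8 and 1 at least 2-fold higher. OASL and IFIT2 passed 2-fold on the miR-30c-2-3p array and in the mock difference. No promoter of theirs was searched, so they are in neither group. With and without a match, the medians were -0.05 and -0.10 on the miR-143-5p array and 0.10 and 0.10 on that of miR-139-3p. These are descriptions, with no test.

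Seeds were looked for in the members' own probes, as heptamers complementary to bases 2 to 8, or to bases 2 to 7 followed by A. They were found in 1 probe each of MX2 (for miR-143-5p), IRF9 and XAF1 (for miR-30a-3p) of the 59, and in none for the other miRNAs. Over all 58201 probes the share was 0.591% to 1.79% per miRNA. IRF9 was at 0.02 and XAF1 at -0.27 on the miR-30a-3p array, and the MX2 probe with the match was not above background on the miR-143-5p array. The probes cover only a small part of each transcript, and 3′ UTRs were not searched here.

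The rest of the pathway was described by lists written from general knowledge. Of 17 interferon genes on the array, 12 were above background in Cy3 on no array, among them IFNB1 and IFNG. IFNA4 was above it on all 8 but dim, at 4.72 to 4.97. The lowest level of any probe above background was 4.57 to 4.62 per array. IFNL2 was above background on 7 arrays, IFNE and IFNL1 on 4 each and IFNL3 on 2. No interferon gene passed the size rule on any array, with 3 to 5 detected on each. The largest difference was that of IFNL2, a type III interferon, at -0.92 with miR-30c-2-3p. Of 17 receptor and JAK-STAT genes, all detected, 0 were lower on any array, where 0.201% to 4.14% of all genes were. The interferon receptor subunit IFNAR1 was higher with miR-30c-2-3p (1.22). IFNGR1, the interferon gamma receptor, was higher with miR-30a-5p (1.25), and PTPN1, a phosphatase that acts on JAK kinases, with miR-30c-5p (1.03) and miR-30a-5p (1.01).

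Among sensing and signalling genes, MAVS, the adaptor of DDX58 and IFIH1, was lower with miR-139-3p (-1.12) and miR-30c-2-3p (-1.46). TRIM25, a ligase that activates DDX58, was lower with miR-139-3p (-1.10). TMEM173 (STING), the adaptor of DNA sensing, and the factor IRF5 were lower with miR-30c-2-3p (-1.36 and -1.44). In all, 3 of 17 detected genes of this list were lower with miR-30c-2-3p and 2 of 16 with miR-139-3p, where 4.14% and 2.82% of all genes were. None passed the rule on the other 6 arrays. The miR-139-3p array thus held IFIT1 and IRF7 above mock and MAVS and TRIM25 below it.

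A list of other interferon-stimulated genes shared ISG15 with the 43. In it, 1 of 31 was lower with miR-30c-2-3p (APOL6, -1.52), against 4.14% of all genes. With miR-30a-3p 1 of 32 was lower (APOL6, -1.64), against 1.10%. LAMP3 was higher with miR-139-3p (1.16), 1 of 29, against 2.11% of all genes. TAP1 was higher with miR-30c-5p (1.01), 1 of 32, against 0.747%. In the interferon gamma and antigen presentation list, TAPBP was higher with miR-143-3p (1.06), 1 of 20, against 0.517% of all genes. TAP1, which is also in this list, was higher with miR-30c-5p, 1 of 20, against 0.747%. PSMB10 was lower with miR-30c-2-3p (-1.44), 1 of 20, against 4.14%. HLA-B was lower with miR-30a-3p (-1.27), 1 of 20, against 1.10%.

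NF-kB targets also differed from mock, in the direction of the members on 4 arrays. With miR-30c-2-3p, 4 of 11 detected NF-kB targets were lower, against 4.14% of all genes. They were BIRC3 (-3.18), RELB (-2.50), CXCL1 (-2.43) and NFKBIA (-1.61). All 11 were below 0, with a median of -0.43. With miR-30a-3p 1 of 15 was lower (BIRC3, -1.87), against 1.10% of all genes. With miR-143-3p 2 of 14 were higher (CXCL1, 1.51, and BIRC3, 1.46), against 0.517% of all genes. With miR-139-3p 2 of 10 were higher (BIRC3 and RELB, both 1.40), against 2.11%. With miR-30c-5p, where no member passed the rule, NFKBIA was higher (1.03), and BIRC3 was higher with miR-139-5p (1.35) and miR-143-5p (1.03). All 13 detected targets were above 0 with miR-30c-5p (median 0.48), and 12 of 15 with miR-30a-5p (median 0.16). The members' medians on these arrays were -0.02 and -0.05. In mock HCT116, 6 of 14 were at least 2-fold higher on the miR-143 arrays than on the miR-139 arrays, against 1.23% of all genes. BIRC3 was higher by 2.92, CXCL1 by 2.79 and RELB by 1.80 on the log2 scale, and the list's median difference was 0.73. In mock PANC-1, where OASL alone of the members differed by 2-fold, 3 of 14 were higher on the miR-30a arrays, against 0.305% of all genes. CXCL1 was higher there by 1.55. What part NF-kB activity has in the members' differences was not tested.

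The mock cells of the lines differed in many members. With 2 mock means per line, limma called 7 of the 40 members tested higher in HCT116, where 24.4% of all genes were called higher, and 12 higher in PANC-1, where 22.0% were. The members' shares were thus near those of all genes. It is not stated whether the mock means of a line came from separate cultures, so p-values measure only the spread between these samples, and the line and the slide column cannot be told apart.

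All 3 IFITM genes were higher in PANC-1, and IFITM1 differed most of the members. It was at 5.52 and 5.68 in the mock means of HCT116 and at 10.91 and 10.49 in those of PANC-1, 5.10 lower in HCT116 on the log2 scale (SE 0.185, limma, adjusted p = 9.65e-05). The lines do not overlap, and the means of a line lay 0.16 and 0.42 apart. IFITM3 was at 12.1 and 12.6 in HCT116 and at 13.7 and 13.6 in PANC-1 (limma, adjusted p = 0.00242), and IFITM2 was also higher in PANC-1 (limma, adjusted p = 0.00427). For MX2, a restriction factor at the nuclear envelope, the probe that stood for the gene was not above background in mock HCT116 and was at 8.19 and 8.34 in PANC-1, at least 12.5-fold higher (limma, adjusted p = 8.72e-05). The other MX2 probe did not show this, with a mean level of 4.72 in mock HCT116 and 4.77 in mock PANC-1. MX1 was higher in PANC-1 by 3.03-fold and DHX58 by 2.47-fold.

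Of the genes that stood out on the miR-30c-2-3p array, IFIT3 and OASL were higher in mock PANC-1 by 6.30-fold and 6.36-fold (limma, adjusted p = 0.00587 and 0.0210). IFIT2 was at 5.55 and 8.91 in HCT116 and at 9.58 and 9.23 in PANC-1, so that the HCT116 means lay on both sides of a wide gap, and the difference of -2.18 did not pass the test (95% confidence interval -4.79 to 0.44, limma, adjusted p = 0.143). IFIT1 (limma, adjusted p = 0.0772) and ISG20 (limma, adjusted p = 0.130) did not pass either. IRF7 was higher in PANC-1 by 2.65-fold, and PARP14 and IFI35 were higher there by 1.78-fold and 1.82-fold. XAF1, which was not above background in mock HCT116, was at least 1.38-fold higher.

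Higher in HCT116 were IFI27 (4.43-fold, limma, adjusted p = 0.0452) and TLR3, which was not above background in mock PANC-1 and was at least 2.65-fold higher in HCT116. CMPK2, STAT2 and IFIT5 were higher by 1.52-fold to 1.58-fold. SAMD9 and HERC6, not above background in mock PANC-1, were at least 1.24-fold and 1.17-fold higher. IFI27 was at 6.31 and 8.44 in HCT116 and at 5.22 and 5.24 in PANC-1. Without the mock of the miR-139 arrays 15 members were called higher in HCT116 (27.5% of all genes), and without the mock of the miR-143 arrays 21 were called higher in PANC-1 (23.6% of all genes). Without the mock of the miR-30c or the miR-30a arrays, 2 and 1 members were called higher in HCT116 (13% and 13.1% of all genes).

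**Figure D5:**
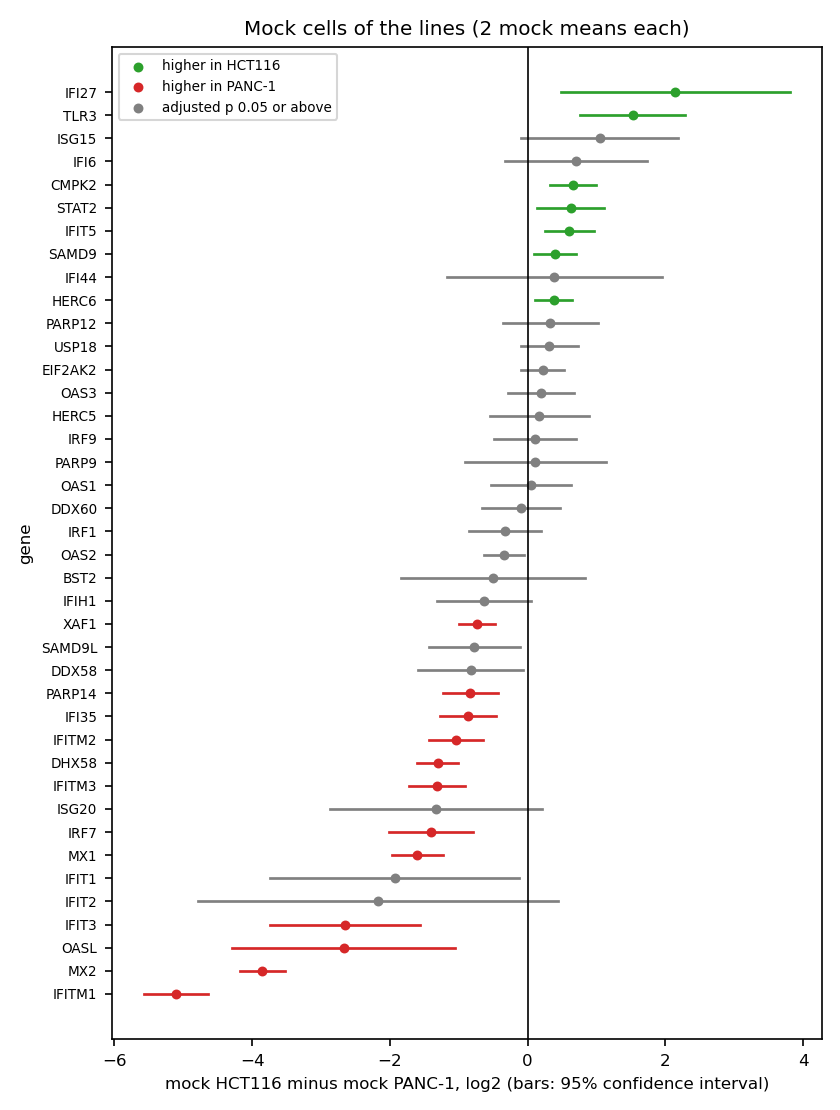
Difference of the mock level between HCT116 and PANC-1 (log2, HCT116 minus PANC-1) for the 40 genes tested, with 95% confidence intervals from limma on 2 mock means per line. Green genes were called higher in HCT116 (7), red genes higher in PANC-1 (12), and grey genes missed the adjusted p of 0.05. IFITM1 (-5.10) and MX2 (-3.85) lie farthest left, and the intervals of IFIT2, IFIT1 and IFI27 are the widest.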

How the data were processed

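RNA of transfected cells (Cy5) and mock cells (Cy3) was measured on 8 two-colour Agilent arrays. Per the file headers, Agilent Feature Extraction 11.5.1.1 gave the mean intensity of each spot and the median intensity of its background; probe positions are on hg19. The deposited log ratio is log10 of processed Cy5 over processed Cy3, and these log10 values recur unchanged in the authors' value table, in which 0 columns lacked a sample. Where used, the log10 ratio was converted to log2.

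In R 4.3.3 with limma 3.58.1 and version 1.17.8 of data.table, intensities were corrected by normexp (offset 50) and the log2 ratio was normalised by loess within each array. Control and outlier spots were left out, spots of a probe were averaged, and the brightest probe represented a gene. Mock levels were quantile normalised. Mock lines were compared by limma (eBayes with trend) on 2 mock means per line, with Benjamini-Hochberg adjustment over 21295 genes. Arrays of a precursor were averaged first, since they may share a mock RNA. The steps were tested on simulated data. The changed spots of the simulated ratios were bright, so this could not show how the offset acts on dim probes. Results and plots were made in Python 3.11.15, numpy 2.4.6, pandas 2.3.3, scipy 1.17.1 and matplotlib 3.10.9.

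The members, lists and tests were chosen with earlier results of these data known. Members at least 2-fold from mock on at least 1 array, and above background in both channels there, were given in full in the order of their roles, and the others by range and count. Other members, promoter windows and genes just inside the limit were named after their values were seen. Alternatives were the scanner's log ratio, median centring, no background correction, offset 10, the median over probes, other filters, the difference between strands and, for mock cells, other scalings, other replicate units and leaving out each mock mean.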

Additional observations from a re-analysis of the deposited data

How the results depend on the processing

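With 1 array per miRNA a ratio has no error between cultures, so an alternative was set against the spread between mock means or between spots, whichever was larger, and a count against a factor of 1.5. Of the 208 values recomputed for medians and counts, 163 moved by less than this and 45 by more. For the HCT116 medians this spread was 0.37 to 0.47, wider than the medians themselves (-0.08 to 0.21), so it could hardly mark a shift there. With the scanner's own log ratio the HCT116 medians were 0.21, 0.30, -0.10 and 0.54, in place of 0.07, 0.10, -0.08 and 0.21. Median centring turned the sign of 4 medians that lay near 0, those of miR-30c-5p, miR-30a-5p and miR-30a-3p below and that of miR-143-5p (-0.08 to 0.017). The scanner's own log ratio put the median of the members at -0.88 on the miR-30c-2-3p, -0.11 on the miR-30a-5p and -0.17 on the miR-30a-3p array. It counted 1 member lower with miR-139-5p, 7 higher with miR-139-3p, 2 higher and 5 lower with miR-143-5p, 7 higher with miR-143-3p, 1 higher and 1 lower with miR-30c-5p, 1 higher and 14 lower with miR-30c-2-3p, 1 lower with miR-30a-5p, and 2 higher and 10 lower with miR-30a-3p. Median centring in place of loess put the members' median at 0.22 with miR-30c-5p (all genes 0.21), -0.26 with miR-30c-2-3p (all genes 0.08), 0.17 with miR-30a-5p (all genes 0.15) and 0.31 with miR-30a-3p (all genes 0.30), and counted 2 higher and 0 lower with miR-30a-3p. Without background correction the miR-30c-2-3p median was -0.54, with 1 higher and 10 lower, and members were lower with miR-30a-3p (7) and miR-143-5p (3). With an offset of 10 the medians were -0.67 with miR-30c-2-3p (1 higher, 11 lower) and -0.12 with miR-30a-3p (7 lower), and 3 were lower with miR-143-5p. For the counts of these settings the share of all genes past the rule was not computed, so they have no baseline. The median over probes gave -0.34 and no filter on dim probes -0.33 for miR-30c-2-3p. Set against the other strand, the median was 0.31 for miR-30c-5p and 0.081 for miR-30a-5p.

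For the mock cells, normexp called 4 of 40 members higher in HCT116, where 23.7% of all genes were. Taking the 4 channels of a line as samples, or these with the precursor as a random block, called 19 higher in PANC-1 in both cases, where 32.0% and 25.4% of all genes were. Leaving out each mock mean in turn gave 1 to 15 members higher in HCT116 and 10 to 21 higher in PANC-1; the lone mean is then assumed to vary like the other line. With 75th percentile scaling, an alternative chosen after seeing the data like the other scalings of the mock difference, 17 members were higher in the HCT116 mock of the miR-143 arrays and 1 in the PANC-1 mock of the miR-30a arrays, where 3.74% and 1.43% of all genes were. Normexp gave 9 and the median over probes 10 in that HCT116 mock, where 0.692% and 0.996% of all genes were. The causes of these shifts were not tested. No paired analysis was possible because each miRNA had 1 array and the labels number no replicates. Members near background limit what can be seen, since IFI44L, RSAD2 and EPSTI1 were above background in both channels on no array.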
